A study of Homo sapiens with 6 samples.

Results

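The genes described here are MYC and a set of ribosome biogenesis genes known as its targets, 40 in all. They were chosen by gene symbol, with earlier results of these data known. Each was read through the probe sets (groups of short probes that measure 1 transcript) annotated to that symbol alone. Of the 40, 35 were measured in this way by 71 probe sets, out of 19775 genes and 41091 probe sets with 1 symbol. NOP56, DKC1, BOP1 and PPAN have only probe sets that carry several symbols, and GNL3 has none under its own symbol, so these 5 were not analysed here. RNA came from HuCCT1 (HuccT1 in the labels), a line labelled bile duct carcinoma, and from KKU-100, labelled poorly differentiated cholangiocarcinoma, a cancer of the bile ducts. Cells of each line received 1 μM regorafenib (low dose), 10 μM regorafenib (high dose) or solvent, with 1 array per condition and 6 arrays in total. The study's text gives lower concentrations for both doses than the labels do, so the treatments are named by low and high dose. By the labels, cells of every group, solvent included, had been stably transduced and kept under puromycin, and no construct is named.

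MYC is a transcription factor that binds DNA together with MAX, preferably at the E-box, a short palindromic motif, and it is best known for driving cell growth. Many of its targets build ribosomes in the nucleolus, where ribosomal RNA is transcribed by RNA polymerase I, modified by small nucleolar ribonucleoproteins, cut, and packed with ribosomal proteins into the small (40S) and large (60S) subunits. MYC mRNA is short-lived and responds to growth factor signals, and regorafenib inhibits several receptor tyrosine kinases and RAF kinases. The comparisons ask how these genes differ between treated and solvent cells of the 2 lines.

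All 35 measured members passed the level filter in both lines, a mean log2 signal in that line at or over the median probe set. Median signals of the arrays ran from 28.8 to 29.3, so a value is a level relative to the other transcripts of its array, and fewer cells of a type cannot be told apart from less RNA per cell. KRT8 and KRT18, keratins of simple epithelium, had signals of 4534 or more in both lines. KRT19 and EPCAM, which mark biliary epithelium, were near the lowest signals of the array in KKU-100, between 8.62 and 11.1, and between 6432 and 9321 in HuCCT1. KRT7, another keratin of biliary epithelium, had 917 to 1227 in KKU-100 and 10354 to 11038 in HuCCT1. Of 9 measured markers of other cell types, 5 passed the level filter in each line. PTPRC of leukocytes and ALB of hepatocytes stayed at or below 10.8 on every array. Over both lines, CD3E had 37.3 to 44.3, APOA1 16.8 to 22.7, DCN 38.5 to 44.8 and VWF 21.7 to 54.8. PECAM1 had 54.8 to 74.1 and COL1A1 135 to 197. The fibrillar collagen COL3A1 reached 538 to 779 in KKU-100 against 6.52 to 8.63 in HuCCT1.

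The E-box CACGTG was searched in promoters from RefSeq (GRCh38.p14), each taken as 250 bases before to 50 bases after a transcription start. The motif reads the same on both strands. Promoters were listed for 33 of the 40 genes, and 16 of these (48.5%) held the motif at 1 or more starts, beside 12.4% of 10373 genes past the level filter and 8.77% of all 27305 genes listed. Over single promoters, 39.0% of the 41 of members and 7.26% of all 35116 held it. The members were listed as known targets of MYC, so these shares are no test of MYC binding. Shown are the 4 members that hold the motif, differed from solvent the same way in both lines under the high dose, and had the largest mean absolute difference there, so that the letters can be read beside their values. Capitals mark CACGTG, and positions count from 1 at the transcription start. WDR43 lies at chr2:28894417-28894716 on the plus strand with the motif at position 4. LYAR lies at chr4:4289972-4290271 on the minus strand with the motif at position −64, in 1 of its 2 listed promoters. UTP20 lies at chr12:101279855-101280154 on the plus strand with the motif at position −10, and UTP18 at chr17:51260296-51260595 on the plus strand with the motif at positions −89 and 5.
WDR43: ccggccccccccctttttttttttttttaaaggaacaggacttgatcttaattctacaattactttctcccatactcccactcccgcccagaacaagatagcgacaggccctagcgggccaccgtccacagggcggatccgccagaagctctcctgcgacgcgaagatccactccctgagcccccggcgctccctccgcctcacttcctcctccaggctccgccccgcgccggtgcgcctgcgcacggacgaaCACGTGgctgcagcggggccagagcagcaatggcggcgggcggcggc
LYAR: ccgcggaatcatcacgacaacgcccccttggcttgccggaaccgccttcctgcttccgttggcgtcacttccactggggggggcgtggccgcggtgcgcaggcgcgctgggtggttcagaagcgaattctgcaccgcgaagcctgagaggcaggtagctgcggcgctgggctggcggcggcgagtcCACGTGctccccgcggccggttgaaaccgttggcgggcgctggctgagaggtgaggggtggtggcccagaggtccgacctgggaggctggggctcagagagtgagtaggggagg
UTP20: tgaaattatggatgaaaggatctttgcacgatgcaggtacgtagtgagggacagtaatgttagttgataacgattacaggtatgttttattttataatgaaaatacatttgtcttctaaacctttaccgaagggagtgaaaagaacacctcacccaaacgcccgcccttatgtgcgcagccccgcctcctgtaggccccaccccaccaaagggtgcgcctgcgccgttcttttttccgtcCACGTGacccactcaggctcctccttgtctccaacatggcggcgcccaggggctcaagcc
UTP18: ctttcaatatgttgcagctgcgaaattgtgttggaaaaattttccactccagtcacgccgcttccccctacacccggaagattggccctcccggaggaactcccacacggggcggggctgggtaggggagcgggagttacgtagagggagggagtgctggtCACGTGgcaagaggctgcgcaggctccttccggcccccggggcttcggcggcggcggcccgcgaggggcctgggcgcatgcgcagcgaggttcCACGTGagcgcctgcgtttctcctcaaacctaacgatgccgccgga

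A match in such a window describes its letters only. The 15 measured members with the motif had median log2 fold changes against solvent of −0.63 (low dose) and −0.62 (high dose) in HuCCT1, beside 0.19 and −0.02 for KKU-100. For the 14 listed without it, the medians were −0.48 and −0.38 in HuCCT1, beside 0.00 and 0.04 for KKU-100.

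MYC was lower in treated HuCCT1 cells and within 1.5-fold of solvent in KKU-100, 1.5-fold being the cutoff the study used. In HuCCT1 its signal was 2479.6 in solvent, 1149 under the low and 787 under the high dose, or −1.11 and −1.66 as log2 fold changes. KKU-100 had 874 in solvent, 1098 under the low and 790.1 under the high dose, with log2 fold changes of 0.33 and −0.15. The HuCCT1 solvent array thus stood above the other 5, and under the high dose both lines were nearly level. ODC1, the rate-limiting enzyme of polyamine synthesis and a classical MYC target outside the ribosome pathway, had another pattern, with its lowest signal under the low dose in both lines. Its signals were 6715 in solvent, 4327 under the low and 5665 under the high dose in HuCCT1. For KKU-100 they were 6518 in solvent, 3686 under the low and 4314 under the high dose. The log2 fold changes of ODC1 were −0.82 and −0.60 in KKU-100, both past the cutoff, though the second was within it after quantile normalization (−0.55) or centring on array medians (−0.57). In HuCCT1 only the low dose (−0.63) was past it, with −0.25 under the high dose.

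**Figure D1:**
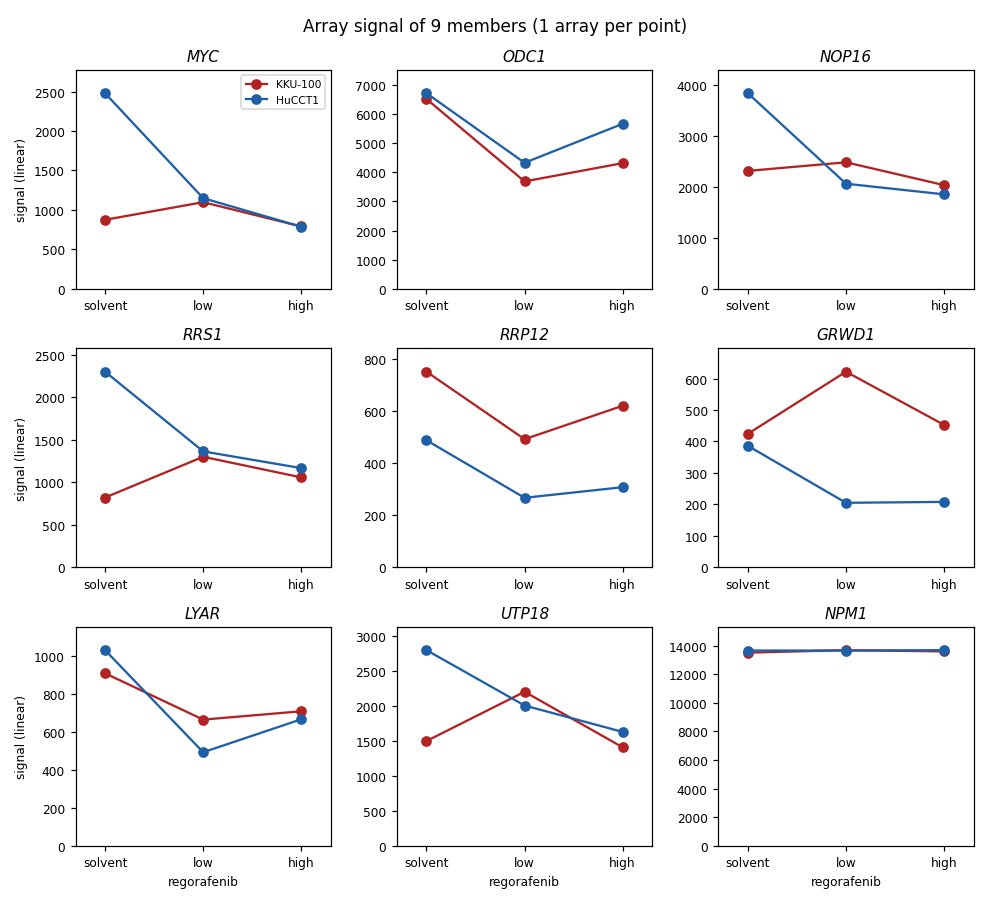
Linear signal (vertical axis) by treatment (horizontal axis: solvent, low, high dose of regorafenib) for 9 members in KKU-100 (red) and HuCCT1 (blue), with 1 array per point and no error bars. MYC stands at 787 under the high dose in HuCCT1, against 2479.6 in solvent, while NPM1 stays near 13663 on all arrays.

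As a group, the members were lower in treated HuCCT1 cells and had no common direction in KKU-100. Under the low dose, 18 of the 35 were lower by 1.5-fold or more in HuCCT1 and 0 were higher, where 3.32% of 12789 genes past the filter were lower and 3.68% higher. With the high dose it was 14 lower and 0 higher, beside 6.44% and 8.23% of all genes. The members' median log2 fold change in HuCCT1 was −0.61 (low dose) and −0.46 (high dose), and the median of all genes was 0.02 for each. Every measured member lay below solvent under the low dose, NPM1 by less than 0.01, and 33 did so under the high dose, NPM1 and NPM3 being the other two. In KKU-100 the low dose left RRS1 higher and both ODC1 and RRP12 lower, 1 and 2 members, beside 9.75% and 7.32% of 12694 genes. The high dose left 0 higher and 1 lower (ODC1), beside 9.44% and 4.86%. Medians of the members in KKU-100 were 0.10 and 0.02, and those of all genes 0.06 and 0.06. The members' 2 medians there turned to −0.01 and −0.02 when each gene was read as the median over its probe sets. Each of these differences is between single arrays and carries no p-value, and the solvent array of a line serves both of its doses. Because the members were chosen with earlier results of these data known, their counts are no independent test against all genes.

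**Figure D2:**
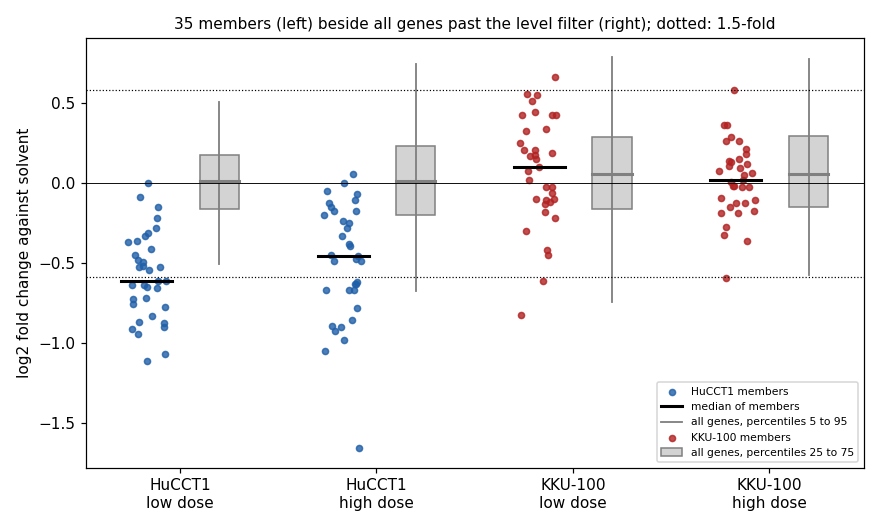
Log2 fold change against the solvent array of the same line (vertical axis) for the 35 members (points, HuCCT1 blue and KKU-100 red, with a black bar at their median) beside all genes past the level filter (grey box from percentile 25 to 75, line from percentile 5 to 95), by line and dose. Each condition is 1 array, and the members' medians lie at −0.61 and −0.46 (HuCCT1) and at 0.10 and 0.02 (KKU-100).

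Ribosomal RNA is first transcribed and modified. POLR1B, the second largest subunit of RNA polymerase I, had a signal of 980.3 in solvent, 642 under the low and 714 under the high dose in HuCCT1. In KKU-100 the corresponding signals were 561, 668 and 721. Treated cells were thus below solvent in HuCCT1, past the cutoff under the low dose (−0.61), and above solvent in KKU-100. The HuCCT1 value was within the cutoff after quantile normalization (−0.55), as the median over probe sets (−0.49) and without probe sets that match several transcripts (−0.39). The other probe sets of POLR1B gave −0.78 and −0.72, −0.39 and −0.60, and −0.20 and −0.27 in HuCCT1 (low, high dose). In KKU-100 the same probe sets gave 0.58 and 0.46, 0.43 and 0.25, and −0.06 and −0.04. RRP9, a protein of the U3 particle, was the only 1 of the 4 measured snoRNP proteins past the cutoff. It was lower in HuCCT1 with the low dose (3.32% of all genes), with 364 in solvent, 213 under the low and 290.5 under the high dose. NOP58, a core protein of box C/D particles, had log2 fold changes of −0.52 and −0.07 in HuCCT1 against −0.02 and 0.08 in KKU-100. FBL, the methyltransferase of the same particles, stayed between −0.15 and −0.13 in HuCCT1, between −0.03 and 0.07 in KKU-100. The probe sets of NOLC1, a chaperone of these particles, disagreed in size. The brightest gave −0.37 and −0.17 in HuCCT1, and the other 2 gave −0.80 and −0.71, and −0.70 and −0.76. In KKU-100 the brightest gave −0.22 and 0.05, while the others gave −0.26 and −0.70, and −0.41 and −0.65.

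The small-subunit processome, which makes the first cuts toward the 40S subunit, and the later 40S factors were represented by 12 genes. In HuCCT1, 7 of them were lower by 1.5-fold with the low dose (3.32% of all genes) and 7 with the high dose (6.44%). WDR43, a processome subunit whose promoter is printed above, had a signal of 749 in solvent, 408 under the low and 401 under the high dose in HuCCT1. KKU-100 had 421 in solvent, 393 under the low and 392 under the high dose. Both treated HuCCT1 arrays were near the KKU-100 level, with log2 fold changes of −0.88 and −0.90, while those of KKU-100 were −0.10 and −0.10. PNO1, which works beside the endonuclease that trims the 40S precursor, had signals of 1566, 813 and 986 (solvent, low, high dose) in HuCCT1, against 1183, 1045 and 1049 in KKU-100. BYSL, another late 40S factor, had 757, 459 and 419 in HuCCT1, against 455, 620.2 and 495 in KKU-100. For BYSL the lines thus went opposite ways, −0.72 and −0.85 in HuCCT1 and 0.45 and 0.12 as log2 fold changes of KKU-100. RRP12, needed in yeast for export of the subunits, had 487, 267 and 307 in HuCCT1, against 751, 491 and 619.7 in KKU-100, past the cutoff in both lines under the low dose. This holds for its brightest probe set only. Its other 4, with signals of 22.7 to 70.1, lay between −0.13 and 0.18 in HuCCT1 under that dose, and between −0.23 and 0.14 in KKU-100.

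Other processome genes differed by line or dose. UTP20 had log2 fold changes of −0.72 and −0.62 in HuCCT1 but 0.21 and −0.32 in KKU-100, and WDR3 had −0.64 and −0.67 in HuCCT1 but −0.06 and −0.03 in KKU-100. A second probe set of WDR3, with signals of only 7.71 to 13.0, gave 0.25 and 0.12 in HuCCT1. UTP18 had signals of 2791, 2001 and 1624 (solvent, low, high dose) in HuCCT1, against 1494, 2197 and 1404 in KKU-100. In KKU-100 its low-dose array was therefore the high one. UTP15 had 612, 388 and 590.5 in HuCCT1, against 346, 259 and 379 in KKU-100, lowest under the low dose in each line by its brightest probe set. Its other probe set had 82.3, 34.4 and 45.4 in HuCCT1, or −1.26 and −0.86 as log2 fold changes. In KKU-100 that probe set had 60.6, 68.9 and 58.0, highest under the low dose. UTP4, of the same subcomplex as UTP15, lay above solvent in KKU-100 (0.52 and 0.58) and below it in HuCCT1 (−0.36 and −0.15). HEATR1, NOP14 and WDR75, the remaining 3, lay between −0.54 and −0.10 in HuCCT1 and between −0.12 and 0.43 in KKU-100. Other HEATR1 probe sets with signals of 198.7 or more gave −0.60 and −0.56, and −0.36 and −0.69, in HuCCT1 (low, high dose). The rest, with signals of 7.85 or less, gave −0.40 to 0.01 there.

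**Figure D3:**
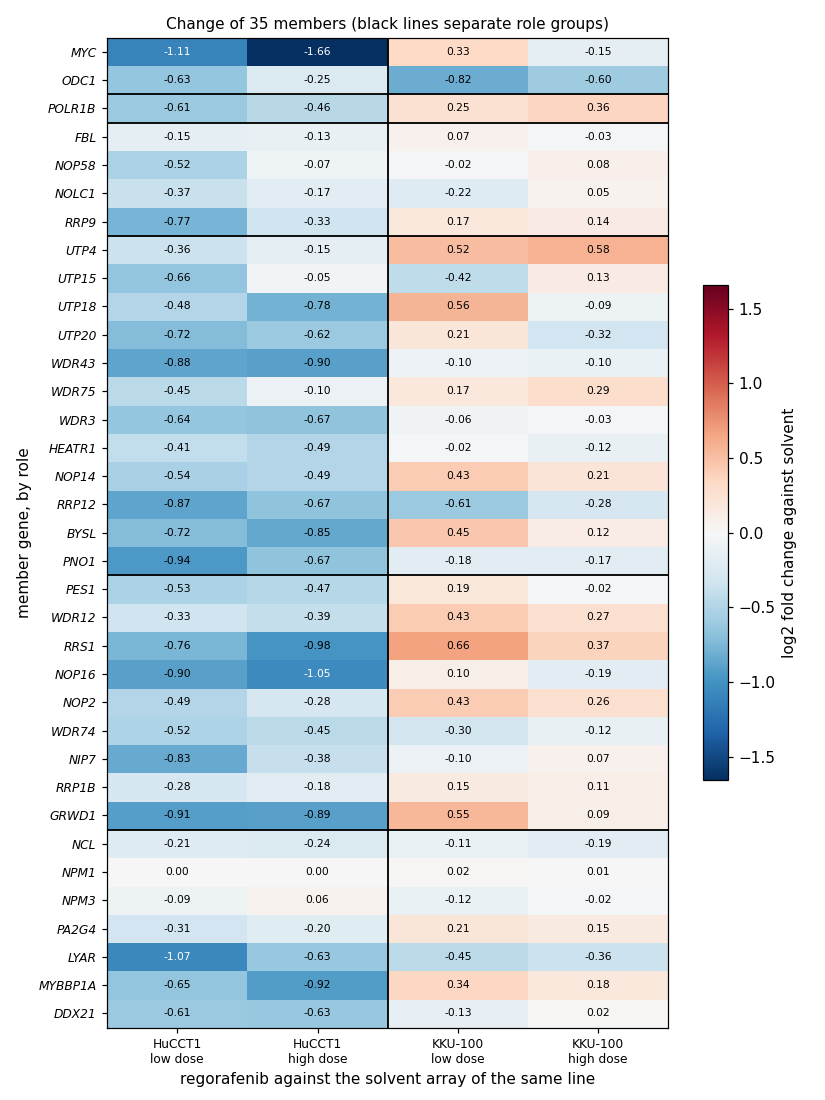
Log2 fold change against the solvent array of the same line (colour, value printed) for the 35 members (rows, in 6 role groups from MYC and ODC1 at the top to nucleolar chaperones and regulators at the bottom), by line and dose (columns), 1 array per condition. The HuCCT1 columns are blue for nearly all members, lowest for MYC at −1.66, and the KKU-100 columns hold both signs, from −0.82 for ODC1 to 0.66 for RRS1.

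Of 9 measured genes of 60S assembly, 4 were lower by 1.5-fold in HuCCT1 with the low dose and 3 with the high dose. The shares of all genes were 3.32% and 6.44%. NOP16, a nucleolar protein of the early 60S particle, had a signal of 3829.7 in solvent, 2057 under the low and 1849 under the high dose in HuCCT1. Its KKU-100 signals were 2308, 2477 and 2029.9, and its log2 fold changes were −0.90 and −1.05 in HuCCT1 but 0.10 and −0.19 in KKU-100. RRS1, which helps to bring the 5S particle into the large subunit, had a signal of 2303 in solvent, 1364 under the low and 1167 under the high dose in HuCCT1. KKU-100 had 821 in solvent, 1301 under the low and 1058 under the high dose. Solvent cells thus gave both the highest RRS1 signal, in HuCCT1, and the lowest, in KKU-100, with log2 fold changes of −0.76 and −0.98 in HuCCT1 against 0.66 and 0.37 in KKU-100. GRWD1, a WD repeat chaperone of a 60S protein, had 386, 205 and 208 (solvent, low, high dose) in HuCCT1, against 424, 622 and 453 in KKU-100. NIP7 was past the cutoff in HuCCT1 with the low dose (−0.83) and not with the high dose (−0.38). WDR12 and PES1, subunits of the PeBoW complex together with BOP1, had −0.33 and −0.39 and −0.53 and −0.47 in HuCCT1, all within the cutoff. NOP2, WDR74 and RRP1B lay between −0.52 and −0.18 in HuCCT1 and between −0.30 and 0.43 in KKU-100.

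Among 7 nucleolar chaperones and regulators, 3 were lower by 1.5-fold in HuCCT1 with either dose, LYAR, MYBBP1A and DDX21. Of all genes, 3.32% (low dose) and 6.44% (high dose) were so. LYAR, a zinc finger protein of the nucleolus, had a signal of 1029 in solvent, 492 under the low and 665 under the high dose in HuCCT1. KKU-100 had 907 in solvent, 663 under the low and 707 under the high dose. The low dose thus gave the lowest LYAR signal of each line, with log2 fold changes of −1.07 and −0.63 in HuCCT1 against −0.45 and −0.36 in KKU-100. MYBBP1A, a nucleolar protein that binds MYB, had 251, 159.9 and 132 in HuCCT1, against 205, 259.9 and 233 in KKU-100. DDX21, a nucleolar RNA helicase, had −0.61 and −0.63 as log2 fold changes in HuCCT1 but −0.13 and 0.02 in KKU-100. NPM1, an abundant chaperone, was nearly level over the arrays, with 13663, 13659 and 13687 in HuCCT1, beside 13515, 13688 and 13602 in KKU-100. These signals lie in the upper range of arrays whose highest signals were 19904 to 20640.3. NCL, nucleolin, had 6436, 5547 and 5454 in HuCCT1, against 5383, 5004 and 4730.2 in KKU-100, lower with each dose but within the cutoff. PA2G4 had −0.31 and −0.20 in HuCCT1 but 0.21 and 0.15 in KKU-100, and NPM3, a relative of NPM1, lay between −0.09 and 0.06 in HuCCT1, between −0.12 and −0.02 in KKU-100.

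The order of solvent, low and high dose differed among members. Past 1.5-fold lower with both doses in HuCCT1 were 13 members (1.93% of all genes), BYSL, DDX21, GRWD1, LYAR, MYBBP1A, MYC, NOP16, PNO1, RRP12, RRS1, UTP20, WDR3 and WDR43, and 0 were past it higher (2.08%). Read as the median over their probe sets, 5 of the 13 were within the cutoff with 1 dose or both in HuCCT1. NOP16 then had −0.45 and −0.58, PNO1 −0.42 and −0.20, RRP12 −0.04 and −0.18, and WDR3 −0.20 and −0.27, while DDX21 was within it with the high dose alone (−0.58). In KKU-100 it was 1 member lower, ODC1 (3.58%), and 0 higher (5.33%). Below solvent with both doses were 33 members in HuCCT1 (31.3%) and 10 in KKU-100 (30.9%). A descending order of solvent, low and high dose was found for 12 members in HuCCT1 (19.1%), MYC among them, and for 3 in KKU-100 (14%). The low-dose array was the lowest for 23 members in HuCCT1 (28.2%) and for 12 in KKU-100 (28.3%). The solvent array was the lowest for 0 members in HuCCT1 (36.1%) and for 14 in KKU-100 (46.2%). These orders are read by sign from single arrays, and several in HuCCT1 rest on small differences between the doses. There the high dose minus the low dose was 0.003 for NPM1 and 0.02 for GRWD1 and FBL, all lowest under the low dose. For DDX21, WDR43 and NCL, in descending order, it was −0.02. Set against the low dose, the high dose in HuCCT1 left 1 member higher, UTP15 at 0.61 (6.57%), and 0 lower (4.64%), with MYC at −0.55 and the members' median at 0.07. In KKU-100 it left 0 higher (4.53%) and 1 lower, UTP18 at −0.65 (1.74%).

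The sign of the difference from solvent often differed between the lines. The HuCCT1 value was below the KKU-100 value for 33 members under either dose, beside 53.9% of 12033 genes past the filter in both lines for the low dose and 54.1% for the high dose. Below solvent in HuCCT1 and above it in KKU-100 were 20 members for the low dose (23.6%), 18 for the high dose (23.7%) and 13 for both (12.4%). By their brightest probe sets, 8 of the 13 were so by more than 0.147 on each array, the median residual SD of limma (3.56%). That residual is what line and treatment leave over, differing responses of the lines included, so it is no error between replicates. Lower by 1.5-fold in both lines were 2 members for the low dose, ODC1 and RRP12 (0.889%), and 0 for the high dose (0.989%).

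Between the lines, the members differed most in solvent. There 31 of 35 had a lower signal in KKU-100 than in HuCCT1, 17 of them by 1.5-fold (22.2% of all genes), and 1 was higher by as much, RRP12 (21.5%). The median difference, KKU-100 minus HuCCT1 on the log2 scale, was −0.52 in solvent, 0.13 under the low and 0.01 under the high dose, and over all genes it was 0.01, 0.03 and 0.01. Under the low dose 2 members were lower (18.3%) and 6 higher (21.6%) by 1.5-fold in KKU-100, and under the high dose 3 were lower (18.5%) and 5 higher (21.3%). For MYC the difference was −1.50 in solvent, −0.07 under the low and 0.01 under the high dose. RRS1 had −1.49 in solvent, −0.07 under the low and −0.14 under the high dose. Both genes were thus nearly level between treated cells of the lines. NPM3 and WDR74, in contrast, kept a lower signal in KKU-100, by log2 differences of at most −1.26 on each pair of arrays. The HuCCT1 solvent array had the highest signal of the 6 arrays for 25 of 35 members (16.2% of all genes), against 0 (15.2%) for HuCCT1 with the low dose, 1 (17.2%) with the high dose, and 2 (17.4%), 5 (18.2%) and 2 (15.8%) for KKU-100 in solvent, low and high dose. Every HuCCT1 comparison with solvent rests on that array.

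**Figure D4:**
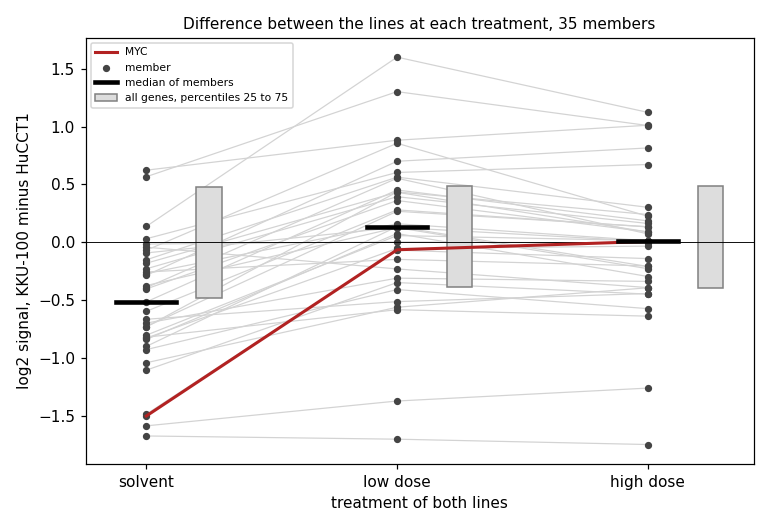
Log2 signal of KKU-100 minus that of HuCCT1 (vertical axis) in solvent and with the low and high dose (horizontal axis), as 1 point and line per member, MYC in red, with a black bar at the members' median and a grey box from percentile 25 to 75 of all genes, from 1 array per line and treatment. The median is −0.52 in solvent, 0.13 with the low dose and 0.01 with the high dose.

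Over the 3 treatments together, limma was fitted to all 6 arrays with treatment as a block. After Benjamini-Hochberg adjustment it called 3 of 35 members higher and 9 lower in KKU-100 than in HuCCT1 (27.9% and 26.3% of 12833 genes). The members' share was thus near that of all genes for lower and below it for higher. NPM3 differed by −1.71 ± 0.11 on the log2 scale (standard error, limma adjusted p = 0.000175) and WDR74 by −1.41 ± 0.12. NOLC1, UTP15, DDX21, PA2G4, NCL, HEATR1 and WDR12 were the other members lower in KKU-100, between −0.68 and −0.20. Higher in KKU-100 were NIP7 by 0.96, GRWD1 by 0.95 and RRP12 by 0.84. MYC, at −0.52 ± 0.31, did not pass (limma adjusted p = 0.214).

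A difference from solvent common to both lines was tested with limma and the line as a block, on 2 residual degrees of freedom. After adjustment it called 0 of 35 members and 0 of 12833 genes with the low dose, the high dose, or the high against the low dose. By unadjusted p under 0.05, limma had 0 members higher (6.14% of all genes) and 8 lower (5.07%) with the low dose. With the high dose these were 0 higher (10%) and 4 lower (4.9%), and for the high against the low dose 3 higher (7.11%) and 0 lower (3.28%). ODC1 had the smallest p with each dose, −0.73 ± 0.09 with the low dose (standard error, limma adjusted p = 0.299) and −0.42 ± 0.09 with the high dose (limma adjusted p = 0.170). RRP12 came to −0.74 ± 0.16 with the low dose, LYAR to −0.76 ± 0.18 and MYC to −0.39 ± 0.38. MYC with the high dose was at −0.90 ± 0.38 (limma adjusted p = 0.354). Without the KKU-100 solvent array, limma called 7 members lower with the high dose, MYC, NOP16, RRS1, DDX21, UTP18, WDR43 and BYSL, and 0 higher, beside 1.86% of all genes lower and 2.55% higher. Without the HuCCT1 solvent array, it called 1 member lower with the low dose, ODC1 (4.79% of all genes), and 1 higher, RRS1 (5.18%), and with the high dose 1 lower, ODC1 (1.86%), and 0 higher (3.04%). The members' shares in the fits without that array were thus near or below those of all genes. In these fits the solvent level comes from the other line alone, so a difference common to both lines is not tested there. Fewer than the 2 residual degrees of freedom of the full fit are left.

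Whether the lines differed in response was tested by the limma interaction of line and treatment, with the doses as repeats of the treated state, a test added after the data had been seen. The solvent array of each line is fitted exactly there, so the residual spread comes only from the doses within a line. The test thus holds no estimate of the spread between solvent arrays. After adjustment it called 0 of 35 members and 0 of 12833 genes. By unadjusted p under 0.05, 14 members had a response in KKU-100 above that in HuCCT1 (5.21% of all genes) and 0 had one below it (2.98%). The response of KKU-100 minus that of HuCCT1 was 1.47 ± 0.44 for MYC and 1.38 ± 0.27 for RRS1 (standard errors, limma adjusted p = 0.601 for each).

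Further genes of the pathway were counted from a list of 84 other assembly factors, 81 of them measured and past the filter. This list, too, was chosen with earlier results of these data known. In HuCCT1, 22 were lower by 1.5-fold (3.32% of all genes) and 0 higher (3.68%) with the low dose. With the high dose 13 were lower (6.44%) and 1 higher (8.23%), and the median log2 fold changes of the list were −0.42 and −0.25. In KKU-100 the counts were 3 lower (7.32%) and 4 higher (9.75%) with the low dose, against 2 lower (4.86%) and 1 higher (9.44%) with the high dose. MDN1, the large ATPase that remodels the 60S particle, had −0.71 and −1.10 in HuCCT1 but −0.16 and −0.35 in KKU-100. TEX10, which acts in the same step, had −0.53 and −0.64 in HuCCT1, near its −0.63 and −0.80 in KKU-100, and DDX52, a processome helicase, had −0.50 and −0.37 in HuCCT1 but −1.25 and −1.13 in KKU-100. Of 14 other genes of the RNA polymerase I machinery, 5 (low dose) and 6 (high dose) were lower in HuCCT1, and 2 with each dose in KKU-100, with 0 higher. The shares of all genes are those just given. POLR1G, a polymerase subunit, had signals of 784, 344 and 270.4 (solvent, low, high dose) in HuCCT1, against 604, 832 and 773 in KKU-100. UBTF, which binds the ribosomal DNA promoter, had −0.32 and −0.72 as log2 fold changes in HuCCT1, beside −0.59 and −0.87 in KKU-100. POLR1A, the largest subunit, had −0.62 and −0.89 in HuCCT1 beside −0.45 and −0.62 in KKU-100.

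Of 12 measured genes of the MYC network (MAX, MYC paralogs, competitors for MAX and related regulators), 11 passed the filter. In HuCCT1, 1 was lower by 1.5-fold with the low dose (MXD1) and 0 with the high dose, with 0 higher. In KKU-100, 2 were lower and 0 higher with the low dose (MXD1 and FBXW7), and 1 lower and 1 higher with the high dose (MXD1 and MYCL). The shares of all genes past the cutoff are those given above for the members. MXD1, which competes with MYC for MAX, had signals of 654, 81.3 and 244 (solvent, low, high dose) in KKU-100, against 84.6, 46.1 and 96.9 in HuCCT1. MYCL, a paralog of MYC, had 32.1, 35.3 and 113 in KKU-100, against 35.1, 34.4 and 41.7 in HuCCT1, so that a single array stood out. FBXW7, which marks MYC protein for degradation, differed from solvent by −0.71 and −0.45 on the log2 scale in KKU-100, against −0.46 and 0.00 in HuCCT1. MLX, a MAX-like protein, had −0.50 and −0.54 as log2 fold changes in HuCCT1 but 0.45 and 0.49 in KKU-100. Of 17 measured MYC-induced genes outside the ribosome pathway, 2 (low dose) and 4 (high dose) were lower in HuCCT1, beside 3.32% and 6.44% of all genes, and 0 higher. In KKU-100, where 16 passed the filter, 2 were higher with the low dose (9.75%) and 0 were past the cutoff with the high dose. Among them PPAT, the first enzyme of purine synthesis, had −0.79 and −0.68 in HuCCT1, the spermidine synthase SRM −0.60 and −0.79 and the purine enzyme GART −0.36 and −0.73. Of 5 genes known to be repressed by MYC, 1 was higher and 2 were lower in HuCCT1 with the low dose, and 2 higher and 0 lower with the high dose. In KKU-100, where 4 passed the filter, 0 were higher and 2 lower with the low dose, and 1 higher and 0 lower with the high dose. The stress gene GADD45A had signals of 938, 1691 and 5585 (solvent, low, high dose) in HuCCT1, against 4166, 2430.0 and 8230.3 in KKU-100. It was highest under the high dose in each line. CDKN2B, an inhibitor of cyclin-dependent kinases, had 274, 409 and 442 in HuCCT1 (0.58 and 0.69 as log2 fold changes), and did not pass the filter in KKU-100. NDRG1 had −0.61 and −0.58 as log2 fold changes in HuCCT1 but 0.03 and −0.55 in KKU-100, and CDKN1A, a cell cycle inhibitor, −0.79 and −0.16 beside −0.69 and −0.44.

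Beside the brightest probe set of each gene, 27 others of 17 members passed the filter in HuCCT1. Of these, 25 lay below solvent under the low dose and 26 under the high dose, 10 and 11 of them by 1.5-fold or more, with medians of −0.47 and −0.50. Over the other probe sets of all genes, 57.6% and 54.6% lay below solvent and 5.57% and 8.74% were lower by 1.5-fold. In KKU-100, 16 and 19 of 28 lay below solvent, beside 49% and 53.2% over all genes, and 0 and 2 were lower by 1.5-fold, both of NOLC1, beside 10.6% and 10.4%, with a median of −0.05 for each dose. The sign matched that of the brightest probe set for 25 and 24 of 27 in HuCCT1, against 71.6% and 72.2% over all genes, and for 18 and 15 of 28 in KKU-100, against 72% and 66.7%. These probe sets share the RNA and the array of the first, so they repeat the reading of a gene and not the treatment.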

How the data were processed

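Expression was measured on 6 Affymetrix arrays. Each deposited value is the intensity of a probe set on a linear scale, for which the submitters' processing notes name MAS5 without a version, and the authors' methods name log2 normalization in GeneSpring. Here the intensities were put on the log2 scale with no other scaling, and 62 control probe sets were left out. Symbols came from the platform annotation and were updated by Entrez ID. A gene was read from its brightest probe set (mean over all arrays) among those with 1 symbol. The level filter lay at percentile 50 and the cutoff at 1.5-fold. limma 3.58.1 (R 4.3.3, trended eBayes, median prior degrees of freedom 3.42) was fitted to 12833 genes after being tested on simulated data. Python 3.11.15, numpy 2.4.6 and pandas 2.3.3 served for the rest. The number of arrays limits the precision, and since nothing tells whether arrays came from separate cultures, p-values measure only the spread between these arrays.

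Members and lists were chosen with earlier results of these data known. The genes named were MYC, ODC1, members past the cutoff the same way in both lines or with both doses of a line, then up to 4 per role group, and up to 3 per further list past the filter in both lines, by mean absolute log2 difference under the high dose. Named after their values were seen were UTP4, UTP15, UTP18, HEATR1, NOP2, NOP14, WDR74, WDR75, NIP7, RRP1B, PES1, NPM1, NPM3, PA2G4, FBXW7 and CDKN2B. The interaction test and the count of other probe sets were also added after seeing the data. The alternatives tried were quantile normalization, centring on medians, a floor at percentile 20, no filter or 1 at percentile 60, omission of probe sets that match several transcripts, the median over probe sets, a 2-fold cutoff, eBayes untrended or robust, a linear dose rank, omission of each array, and the methods' t-test.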

Additional observations from a re-analysis of the deposited data

Results flagged for a closer look

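In 8 members, both treated arrays of KKU-100 lay above solvent and both of HuCCT1 below it by the brightest probe set. Each did so by more than 0.147 on the log2 scale. This margin is the median residual SD, which is no error between replicates. The mean difference from solvent in KKU-100 minus that in HuCCT1 was 1.38 for RRS1, 1.04 for MYBBP1A, 0.84 for POLR1B, 0.83 for NOP14, 0.80 for UTP4, 0.73 for NOP2, 0.71 for WDR12 and 0.44 for PA2G4. The same held for 3.56% of 12033 genes. Other probe sets did not all repeat it. In KKU-100 (low, high dose) that of PA2G4 gave −0.23 and 0.01, and that of MYBBP1A 0.21 and −0.05. Those of WDR12 gave 0.02 and −0.21, and 0.12 and 0.34. Those of POLR1B were above solvent except for the one with −0.06 and −0.04. The second probe set of UTP4 (0.42 and 0.32) did repeat it, while RRS1, NOP14 and NOP2 have a single probe set. The limma interaction called none of these 8, with 0.601 as the smallest adjusted p among all members.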

How the results depend on the processing

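The members' median in HuCCT1 ran from −0.64 to −0.49 with the low dose and from −0.47 to −0.36 with the high dose over the alternatives of scaling, filter and probe set. In KKU-100, where the medians were 0.10 and 0.02, taking the median over probe sets turned them to −0.01 and −0.02. A 2-fold cutoff left 2 members lower in HuCCT1 with each dose, and 0 wherever 1 or 2 had been past 1.5-fold in KKU-100 or between the doses. In KKU-100 with the high dose, quantile normalization and centring on medians each gave 1 higher and 0 lower (ODC1 within the cutoff), and the median over probe sets gave 2 lower. With the low dose there, 1 was lower by the median over probe sets or when probe sets that match several transcripts were left out, and this omission also gave 0 lower for the high against the low dose. For that comparison in HuCCT1, 0 were higher by quantile normalization or the median over probe sets. The omission moved WDR3 in HuCCT1 to 0.25 (low dose) and 0.12 (high dose), read from a probe set with signals of 7.71 to 13.0. Between the lines, the methods' t-test called 3 members and leaving out 1 array gave 8 to 17. For a difference common to both lines, leaving out 1 array gave 0 to 2 calls with the low dose, 0 to 7 with the high dose, and 0 between doses, and the interaction had 0 in each alternative run. The calls with either dose all came from fits without a solvent array, in which the solvent level comes from the other line alone. No paired analysis by replicate number was run because the labels give none, and line or treatment was the block in limma. The cause of these shifts was not tested.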
